A study of Mus musculus with 4 samples.

Results

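Pulmonary surfactant is the film of phospholipid and protein that lowers surface tension at the air side of the alveolus. Alveolar type 2 cells make it, store it in lamellar bodies, which are lysosome-related organelles, and secrete it. The 9 genes described here cover that route: the secreted proteins (Sftpa1, Sftpb, Sftpc and Sftpd), the enzymes and transporters that process the proteins and fill or line the lamellar body (Napsa, Lpcat1, Abca3 and Lamp3), and the phosphate transporter Slc34a2. They were chosen by gene symbol, and all 9 were found among the 32285 genes of each of the 4 count matrices. No measured value set the choice, but earlier results of these data were known when it was made.

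The study asked how editing of the Galt gene goes with the transcriptome of single lung cells. Whole lungs of Galt gene-edited mice (GAL, 2 libraries) and of wild-type mice (WT, 2 libraries) were digested to single cells, and polyadenylated RNA was counted by unique molecular identifiers (UMIs, 1 per captured RNA molecule) in droplets. The labels give no strain, age, sex or kind of edit and do not say whether each library came from 1 animal, so the spread between the 2 libraries of a group may be technical. Galt encodes an enzyme of galactose metabolism, and its RNA was at 13.4 and 10.8 CPM (UMIs of a gene per 1000000 UMIs of the cells summed) in GAL and at 11.5 and 11.5 in WT (log2 fold change 0.05 ± 0.18, standard error, edgeR adjusted p = 0.946). The level of this RNA does not check the genotype, because the position of the edit is not given.

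The libraries held 62406681 and 56218178 UMIs in GAL and 61340929 and 58518235 in WT, and 11887 to 15416 cells per library passed the filters. GAL cells were the deeper ones, with medians of 3782.5 and 2911 UMIs per cell, against 2536 and 2472.5 in WT. Between 107 and 149 cell barcodes were shared by any 2 libraries. Cells were assigned to 18 cell types by gates, each a list of marker genes that holds none of the 9 genes: a cell entered a gate with at least 3 of its markers detected and at least 2 more than for any other type. The alveolar type 2 gate took 469 of 53463 cells, and 461 of them (98.3%) lay in the alveolar type 2 cluster of a separate unsupervised clustering that left the 9 genes out. All 12 markers of this gate, which include Cxcl15, Sfta2 and S100g, were detected in it in every library, with a summed level of 15129 and 12775 CPM in GAL and 16492 and 16676 in WT. In the T gate the same list summed to 36.0 to 78.0 CPM. These markers chose the cells, so their level is not a separate check of the label.

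The promoters show which of the genes carry the letters bound by 2 factors of lung epithelium. NKX2-1 and forkhead factors are regulators of surfactant genes, and their motifs were searched as CTCAAG and TGTTTAC, on both strands, in windows of 300 bases around the RefSeq start of 6 of the 9 genes (GRCm38.p6). Sftpc, Sftpd and Napsa are named only. CTCAAG was present in 2 of the 6 windows, Sftpa1 and Sftpb, and in 15.9% of 32851 windows of all genes. TGTTTAC was present in 1 of the 6, Lamp3, and in 3.65% of all windows. Abca3, Lpcat1 and Slc34a2 had neither sequence in their windows. The 250 bases before the start are shown for the 3 genes with a match, 5′ to 3′ on the strand of the gene, with the motif in capitals. The windows are chr14:41131538-41131787 (plus strand) for Sftpa1, chr6:72304360-72304609 (plus strand) for Sftpb and chr16:19706366-19706615 (minus strand) for Lamp3.
Sftpa1: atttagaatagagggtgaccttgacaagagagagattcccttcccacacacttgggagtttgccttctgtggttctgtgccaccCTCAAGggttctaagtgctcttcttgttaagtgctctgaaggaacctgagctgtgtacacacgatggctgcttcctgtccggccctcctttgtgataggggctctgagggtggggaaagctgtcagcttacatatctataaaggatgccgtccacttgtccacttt
Sftpb: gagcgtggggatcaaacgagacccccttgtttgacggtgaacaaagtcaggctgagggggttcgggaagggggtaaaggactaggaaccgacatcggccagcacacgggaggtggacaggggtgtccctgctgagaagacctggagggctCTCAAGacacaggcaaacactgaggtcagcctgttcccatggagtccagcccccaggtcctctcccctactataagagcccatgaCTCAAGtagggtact
Lamp3: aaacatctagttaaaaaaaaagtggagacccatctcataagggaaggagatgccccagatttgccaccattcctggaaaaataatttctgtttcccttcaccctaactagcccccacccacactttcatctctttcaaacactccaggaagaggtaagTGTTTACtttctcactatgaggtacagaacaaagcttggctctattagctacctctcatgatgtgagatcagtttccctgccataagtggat
The match in Sftpa1 begins 166 bases before the start, those in Sftpb begin 100 and 15 bases before it, and that in Lamp3 begins 92 bases before it. A match is a description of letters and does not show that a factor was bound.

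The number of alveolar type 2 cells recovered differed more within GAL than between the groups. The gate held 308 cells (2.54% of kept cells, exact 95% interval 2.26% to 2.83%) in GAL replicate 1 and 12 cells (0.101%, 0.0522% to 0.176%) in GAL replicate 2. It held 85 cells (0.607%, 0.485% to 0.750%) in WT replicate 1 and 64 cells (0.415%, 0.320% to 0.530%) in WT replicate 2. Both WT libraries lay between the GAL libraries. For the share, edgeR's quasi-likelihood test gave 1.37 ± 1.27 on the log2 scale (unadjusted p = 0.318; over 18 gates, adjusted p = 0.778), and 0 of 18 gates were called or had an unadjusted p under 0.05. With GAL replicate 1 left out it became −2.33, and with GAL replicate 2 left out 2.31. The intervals cover counting error only.

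In the whole lung, the genes for secreted surfactant proteins were highest and lowest in the libraries with the most and fewest of these cells. Sftpc, which encodes the hydrophobic surfactant protein C, had 7213.7 and 272.4 CPM in GAL libraries, against 1268.2 and 1387.9 in WT libraries. Sftpb, which encodes the surfactant protein B needed for lamellar bodies and for spreading of the film, had 391.5 and 17.4 CPM in GAL, against 64.6 and 60.4 in WT. For both genes GAL replicate 1 was the highest library and GAL replicate 2 the lowest. Between the WT libraries, Sftpc was higher in WT replicate 2, which held fewer gated cells than WT replicate 1. Sftpa1, which encodes a collectin of innate defence, had 981.9 and 66.4 CPM in GAL, against 264.6 and 205.8 in WT. Sftpd, the gene of the other collectin, had 200.7 and 18.5 in GAL, against 70.9 and 38.1 in WT. Lamp3, a membrane glycoprotein of lamellar bodies, had 52.5 and 2.3 in GAL, against 11.7 and 8.6 in WT. Slc34a2, the sodium-phosphate cotransporter of the apical membrane, had 143.0 and 8.7 in GAL, against 38.4 and 22.9 in WT. Each of these 6 genes had the same order of libraries at its ends, with WT between the GAL values.

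The remaining genes varied less in the whole lung. Abca3, the transporter that loads phospholipid into lamellar bodies, had 38.0 and 19.3 CPM in GAL, against 22.1 and 19.7 in WT. Lpcat1, the acyltransferase that makes the dipalmitoylated phosphatidylcholine of surfactant, had 74.1 and 31.9 in GAL, against 34.2 and 31.0 in WT. Napsa, an aspartic protease that cleaves the surfactant protein B precursor, had 154.4 and 102.1 in GAL, against 108.7 and 150.2 in WT. GAL and WT overlapped for all 9 genes after TMM scaling. In sums of a whole lung, fewer cells of a type and less RNA per cell cannot be told apart.

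By edgeR 0 of 9 genes were called in the whole lung at an adjusted p under 0.05, and 0 of 17222 genes in all (0%), with 954 at an unadjusted p under 0.05 of which 0 were among the 9. DESeq2 called 0 of the 9 and 38 of 24264 genes in all. Of the 9 log2 fold changes of GAL over WT 8 were positive, with a median of 1.07 beside 0.02 for all genes. Sftpc lay at 1.42 ± 1.29 (95% interval −1.92 to 4.75) and Napsa at −0.03 ± 0.23 (−0.63 to 0.56). Without GAL replicate 1 the median of the 9 was −1.78. Without GAL replicate 2 it was 1.95, and 5 of the 9 were called as higher (Sftpa1, Sftpb, Sftpc, Lamp3 and Slc34a2), with Sftpc at 2.34 ± 0.21 (adjusted p = 0.0205), where GAL was then 1 library and 414 genes were called in all. The median of the 9 thus changed sign with the GAL library that was left out.

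**Figure D1:**
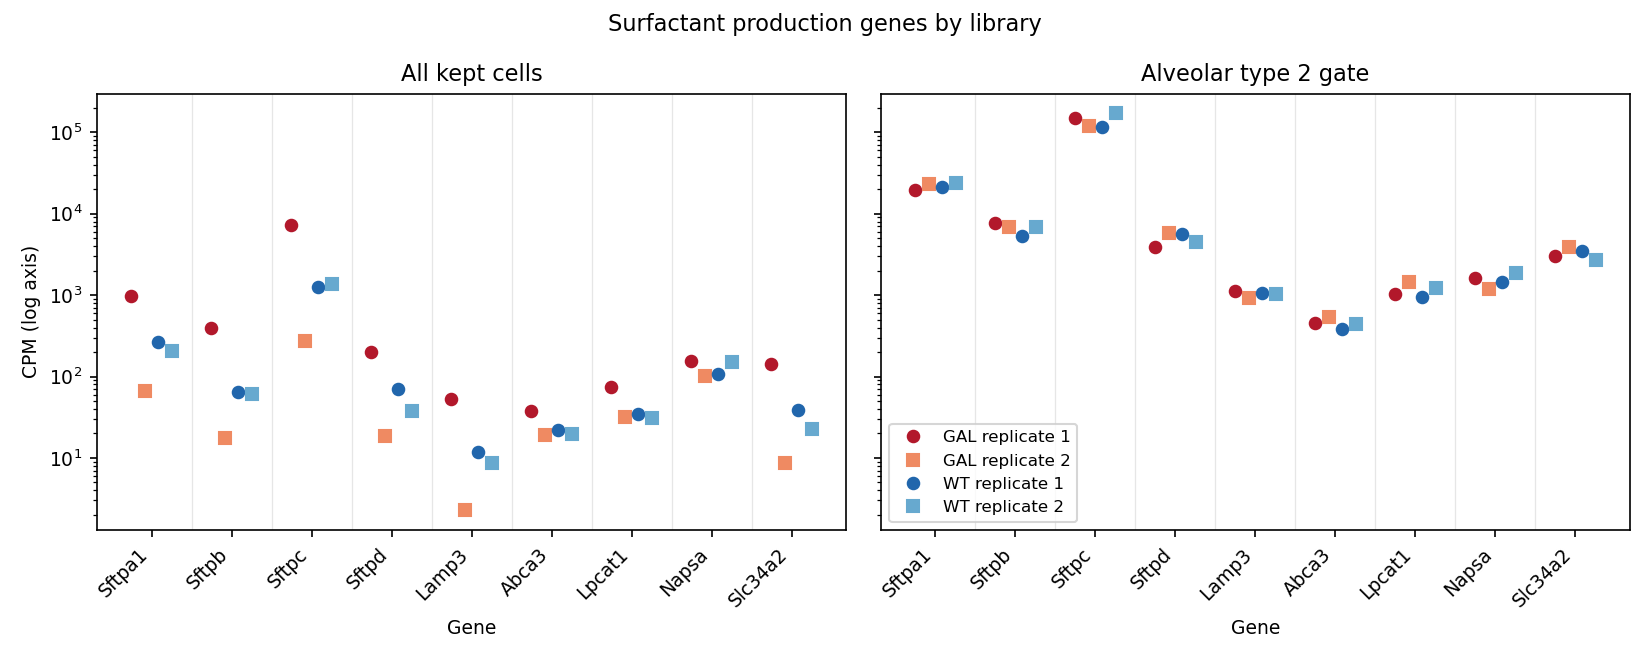
Level of each of the 9 genes in CPM (log axis) in every library, over all kept cells (left) and in the alveolar type 2 gate (right); red symbols are GAL libraries and blue symbols WT libraries. Over all cells Sftpc spans 272.4 to 7213.7, with GAL replicate 1 highest and GAL replicate 2 lowest, whereas in the gate it spans 114760 to 171020.

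Inside the alveolar type 2 gate the libraries lay close together. The 9 genes made up 18.8% and 16.4% of all UMIs of the gated cells in GAL and 15.5% and 21.4% in WT, and Sftpc alone made up 79.7% and 73.4% of the UMIs of the 9 in GAL and 74.2% and 79.9% in WT. Sftpc had 149720 and 120510 CPM in GAL, against 114760 and 171020 in WT. Sftpa1 had 19328 and 22920 in GAL, against 21591 and 24177 in WT. For Sftpc both GAL libraries lay between the WT libraries, and for Sftpa1 the groups overlapped. Sftpb had 7618 and 6926 in GAL, against 5399 and 6956 in WT, and Sftpd had 3887 and 5859 in GAL, against 5627 and 4472 in WT. The groups overlapped for these genes too.

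The genes that process and pack surfactant were as even. Napsa had 1631 and 1178 CPM in GAL, against 1463 and 1845 in WT. Lpcat1 had 1026 and 1442 in GAL, against 952 and 1239 in WT. Abca3 had 452 and 538 in GAL, against 387 and 448 in WT, with both GAL libraries above both WT libraries, also after TMM scaling. The same held for 836 of the 5703 genes tested in this gate (14.7%). Lamp3 had 1120 and 934 in GAL, against 1058 and 1037 in WT, and Slc34a2 had 2982 and 3920 in GAL, against 3486 and 2728 in WT. Neither showed a separation of the groups.

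Fold changes in the gate were small and their intervals were bounded. By edgeR 0 of 9 genes and 0 of 5703 genes in all (0%) were called, an unadjusted p under 0.05 was reached by 113 of all genes and 0 of the 9, and by DESeq2 0 of the 9 and 0 of 16330 genes in all were called. The log2 fold changes of GAL over WT ran from −0.22 ± 0.26 (Napsa, 95% interval −0.79 to 0.35) to 0.23 ± 0.22 (Sftpb, −0.25 to 0.72), each with an adjusted p of 0.9999. Abca3 lay at 0.23 ± 0.25 (−0.33 to 0.78), Slc34a2 at 0.15 ± 0.23 (−0.35 to 0.65) and Lpcat1 at 0.15 ± 0.26 (−0.42 to 0.72). Lamp3 lay at −0.01 ± 0.23 (−0.53 to 0.50), Sftpd at −0.06 ± 0.24 (−0.58 to 0.46), Sftpc at −0.09 ± 0.22 (−0.56 to 0.39) and Sftpa1 at −0.12 ± 0.19 (−0.53 to 0.29). The median of the 9 was −0.01, and that of all genes −0.01. On simulated counts of this gate, 200 genes drawn from all tested genes were changed. The test recovered 6.5% of 2-fold changes, 67% of 4-fold and 89% of 8-fold changes, so in such genes a change of 2-fold would mostly be missed. Recovery at the levels of the 9 genes was not simulated, and their intervals given above lie between −0.79 and 0.78. GAL replicate 2 gave only 12 cells.

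**Figure D2:**
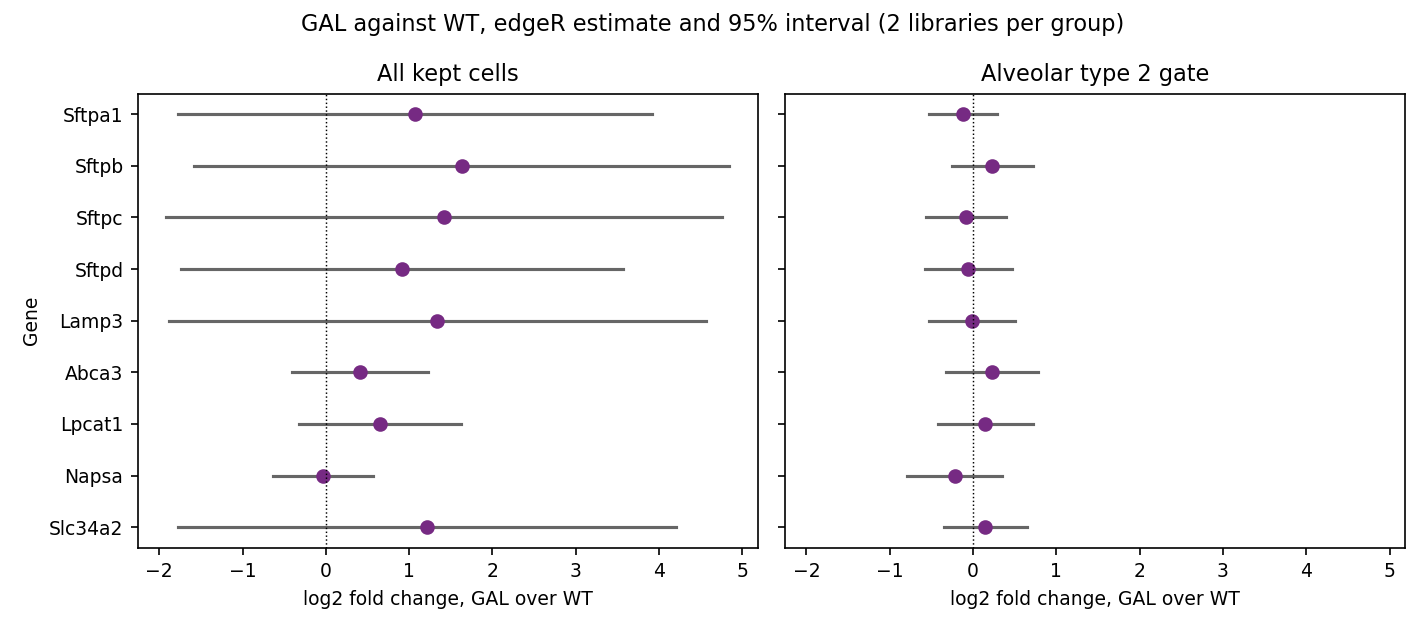
log2 fold change of GAL over WT for each of the 9 genes (points, edgeR) with its 95% interval (lines), over all kept cells (left) and in the alveolar type 2 gate (right), with 2 libraries per group. Over all cells the intervals of the surfactant protein genes cross 0 and reach beyond 3 on the log2 scale (Sftpc −1.92 to 4.75), whereas in the gate all 9 estimates lie between −0.22 and 0.23.

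Markers of other cells were present in the gated cells at unequal levels. Of the 9 club cell markers, the GAL libraries had UMIs of 6 and 4 and the WT libraries of 6 and 4, with summed levels of 16965 and 132 CPM in GAL and 2399 and 467 in WT. Scgb1a1, the secretoglobin of club cells, led this list, and in GAL replicate 1 1 cell held 62.0% of its UMIs and 3 cells held 90% of them. Alveolar macrophage markers summed to 237 and 162 CPM in GAL and to 2036 and 149 in WT. Those of alveolar type 1 cells summed to 1417 and 1076 in GAL and to 1033 and 1487 in WT. In their highest libraries, plasma markers summed to 910 (GAL replicate 1), type 2 dendritic markers to 854 (WT replicate 1) and mural markers to 682 (WT replicate 2). The part of RNA of other cells in the levels of the 9 genes was not tested.

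Single cells of the gate ranged widely in every gene. In GAL replicate 1 the 9 genes took a median of 19.9% of a cell's UMIs, with quartiles of 16.5% and 23.8%. The lowest gated cell of that library had 0.0968%, beside 0.0579% in the summed T gate, and the highest had 36.8%. Sftpc was detected in all 469 gated cells. Abca3, the gene with the most cells at 0, was at 0 in 56 of 308 and 2 of 12 cells in GAL and in 8 of 85 and 9 of 64 in WT. With cells thinned to 1000 UMIs each, Abca3 was detected in 39.7% and 41.7% of GAL cells and in 35.4% and 42.6% of WT cells. Within a library the genes tended to rise and fall together between cells. The median Spearman correlation over the 36 pairs of genes was 0.34 over 308 cells of GAL replicate 1, against 0.36 over 85 cells and 0.15 over 64 cells of the WT libraries; GAL replicate 2 had too few cells. Sftpb and Sftpc were the pair with the highest lowest value (0.48 in GAL replicate 1, against 0.63 and 0.43 in the WT libraries), followed by the collectins Sftpa1 and Sftpd (0.47, against 0.60 and 0.38). These are descriptions over cells of 1 library, which share its free RNA, and levels are shares of the same total.

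Genes of the surrounding pathway were given from 4 lists of 43 genes in all, and 0 of them were called in the gate in either direction. Of 14 genes of fatty acid and phospholipid supply 12 were tested, with a median log2 fold change of 0.02. Fabp5, a fatty acid carrier, lay at −0.55 ± 0.28, the fatty acid synthase Fasn at 0.25 ± 0.24, the acetyl-CoA carboxylase Acaca at 0.26 ± 0.31 and the choline phosphotransferase Chpt1 at 0.20 ± 0.37. Of 12 genes of lamellar body biogenesis and secretion 8 were tested, with a median of 0.09. The ubiquitin ligase Nedd4l had 185 and 178 CPM in GAL, against 115 and 123 in WT after TMM scaling, or 0.62 ± 0.27 on the log2 scale (edgeR adjusted p = 0.9999). Both GAL libraries lay above both WT libraries, and its unadjusted p was under 0.05, as for 113 of 5703 genes. The cathepsin Ctsh, a processing protease of surfactant proteins, lay at 0.42 ± 0.24, Hps4, a subunit of a complex for lysosome-related organelles, at −0.32 ± 0.53 and the receptor Adgrf5, which restrains surfactant secretion, at 0.11 ± 0.25.

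Of 9 genes of lipid recycling and clearance 4 were tested in the gate, with a median log2 fold change of −0.23. Among them were the cytokine gene Csf2 (−0.51 ± 0.49), which supports surfactant clearance by alveolar macrophages, its receptor gene Csf2ra (−0.40 ± 0.62) and the phospholipase and peroxidase Prdx6 (0.26 ± 0.27). All 8 transcription factors of alveolar epithelium were tested, with a median of 0.06. Cebpa lay at 0.49 ± 0.29, Nfib at 0.40 ± 0.30, Foxa2 at −0.39 ± 0.36 and Tfcp2l1 at 0.31 ± 0.36. In the whole lung 0 of the 43 genes were called, and the 8 transcription factors had a median of 0.76, with 7 positive. GAL replicate 2 lay below both WT libraries for Nkx2-1, Foxa1, Foxa2, Cebpa, Etv5 and Tfcp2l1 (Etv5 at 15.7 and 5.28 CPM in GAL, against 8.05 and 5.48 in WT, after TMM scaling). For Cebpa GAL replicate 1 lay below both WT libraries too (31.7 and 25.6 CPM in GAL, against 34.9 and 34.9 in WT, −0.28 ± 0.17 on the log2 scale).

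Across cell types, each of the 9 genes was highest in the alveolar type 2 gate, and its lowest library there lay above the highest library of any other gate with at least 10 cells in every library (16 gates). The gate held 79.6% and 53.6% of all UMIs of the 9 genes in GAL and 79.5% and 80.6% in WT, although it held at most 2.54% of the cells of a library. For Sftpc it held 81.4% and 77.8% of the gene's UMIs in GAL and 87.6% and 89.4% in WT. For Slc34a2 the figures were 81.8% and 78.8% in GAL and 87.8% and 86.5% in WT. For Napsa they were only 41.4% and 2.03% in GAL and 13.02% and 8.91% in WT, so most Napsa UMIs lay outside the gate in every library. The part of free RNA and of ungated alveolar type 2 cells in those UMIs was not tested.

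**Figure D3:**
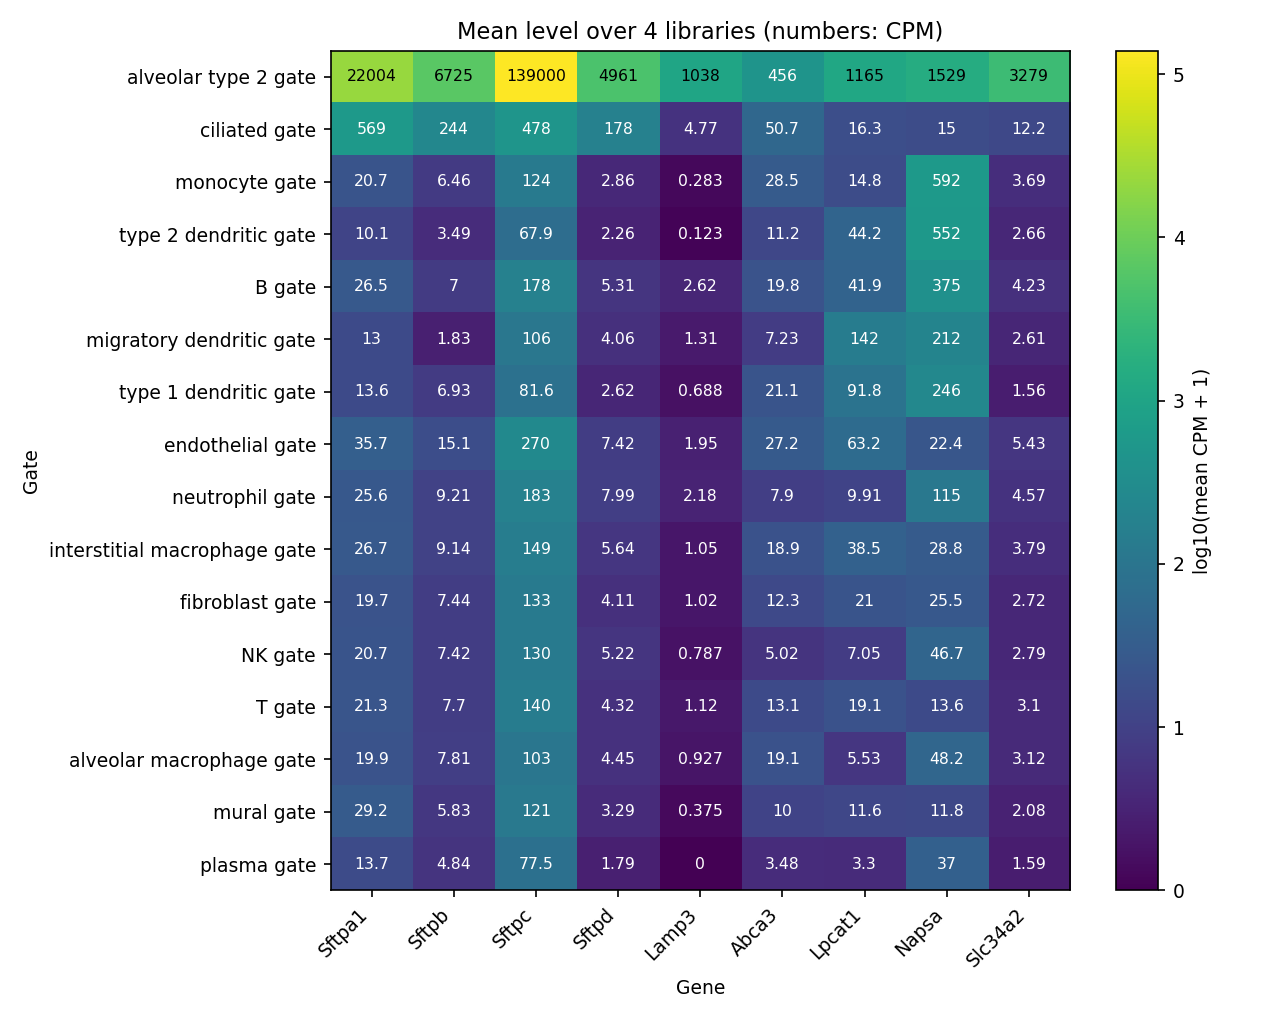
Mean level of the 9 genes (columns) over the 4 libraries in each of 16 gates (rows), as numbers in CPM and as colour on a log10 scale. The alveolar type 2 gate is highest in every column, the ciliated gate has the next mean for Sftpa1, Sftpb, Sftpc and Sftpd (for Sftpc through 1754 in GAL replicate 1 alone), and Napsa stays at 115 or more in the monocyte, dendritic, B and neutrophil gates.

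Droplets hold free RNA from broken cells, which gives UMIs of abundant genes to cells that do not express them. T cells do not make surfactant, and Sftpc in the T gate served as the measure of this background. Sftpc had 419.1 and 7.6 CPM in the T gate of GAL, against 77.2 and 57.5 in WT. In the alveolar type 2 gate every cell had an Sftpc UMI, and 99.0% to 100% of its cells did once thinned to 1000 UMIs. At least 1 Sftpc UMI was seen in 70.4% and 2.41% of T cells in GAL (median depth 3378 and 2893 UMIs) and in 17.1% and 14.8% in WT (2110.5 and 2766 UMIs). With every cell thinned to 1000 UMIs, which left out 20 and 31 GAL cells and 85 and 48 WT cells, the shares were 32.9% and 0.671% in GAL and 7.48% and 5.35% in WT. The order of the libraries in T cells was that of their alveolar type 2 cells, with GAL replicate 1 at the top and GAL replicate 2 at the bottom.

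**Figure D4:**
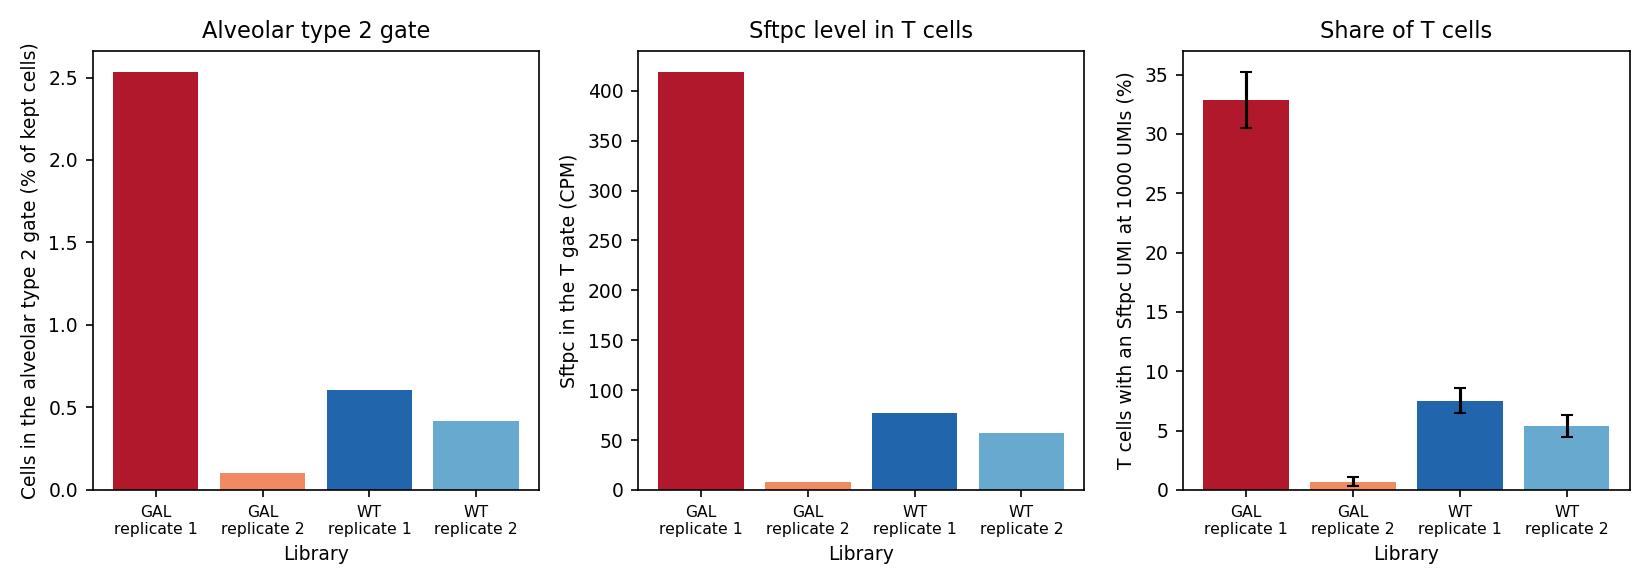
Share of kept cells in the alveolar type 2 gate (left), Sftpc level in the T gate (middle) and share of T cells with at least 1 Sftpc UMI after thinning to 1000 UMIs (right, bars with exact 95% intervals), by library. All 3 measures are highest in GAL replicate 1 and lowest in GAL replicate 2, with both WT libraries between.

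If background were the only source, every gene of the set would keep, in other cells, the ratio to Sftpc that it has in the alveolar type 2 gate of the same library. This expectation was computed for each gate and library and compared where it reached at least 5 UMIs, leaving out the ciliated gate. Sftpa1 had a median ratio of measured to expected of 1.13 (range 0.66 to 2.25) over 43 pairs of gate and library, and Sftpb 1.15 (0.60 to 1.91) over 30. Sftpd had 1.13 (0.57 to 2.47) over 25 pairs, Slc34a2 1.04 (0.39 to 2.29) over 24 and Lamp3 0.998 (0.91 to 2.88) over 9. None of these 5 genes reached 3 times the expectation in any of these pairs. Where compared, these genes in immune, endothelial and stromal gates thus had medians near the ratios of alveolar type 2 cells. Single pairs ran from 0.39 to 2.88 times the expectation. Pairs with a lower expectation were left out, so the source of the differences between libraries there was not tested. In cells outside the alveolar type 2 gate Sftpc had 1399 and 60.6 CPM in GAL, against 159 and 149 in WT (log2 fold change 2.16 ± 1.27, edgeR adjusted p = 0.728). This sum also holds cells in no gate. In them the 9 genes made up 0.993% and 0.0683% of UMIs in GAL and 0.105% and 0.120% in WT. In the T gate they made up 0.0579% and 0.00494% in GAL and 0.0154% and 0.01125% in WT. The alveolar type 2 cluster took 624 cells, against 469 in the gate, and the part of ungated alveolar type 2 cells was not tested.

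Napsa, Lpcat1 and Abca3 were above the expectation. Over the pairs compared, the median ratio was 17.7 for Napsa (11 pairs, range 2.78 to 512), 11.1 for Lpcat1 (9 pairs, 3.89 to 27.2) and 11.7 for Abca3 (4 pairs, 10.3 to 24.1). More than 3 times the expectation was reached in 10 of 11, 9 of 9 and 4 of 4 pairs.

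Napsa was a gene of monocytes, dendritic cells, B cells and neutrophils in these lungs as well as of alveolar type 2 cells. It had 736 and 528 CPM in the monocyte gate of GAL, against 439 and 668 in WT. In the type 2 dendritic gate it had 602 and 559 in GAL, against 468 and 578 in WT, and in the B gate 434 and 320 in GAL, against 306 and 439 in WT. GAL and WT overlapped in all 3 gates, in libraries whose Sftpc in T cells ran from 7.6 to 419.1 CPM. The type 1 dendritic gate (198 to 278 over the 4 libraries), the migratory dendritic gate (147 to 341) and the neutrophil gate (86.4 to 141) followed, and the T gate had 12.7 and 8.2 in GAL and 17.9 and 15.7 in WT. At 1000 UMIs per cell, 33.2% and 25.5% of B cells had a Napsa UMI in GAL and 24.6% and 32.8% in WT, against 1.02% and 0.671% of T cells in GAL and 0.677% and 1.00% in WT. Markers of alveolar type 2 cells, which sum to 12775 or more in their own gate, summed to 55.4 and 11.9 CPM in the monocyte gate of GAL and to 21.7 and 14.5 in WT.

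Differences between gates were tested against the T gate, with the library as a block. In the fits of 14 gates that could be tested, Napsa was called as higher in 11 and as lower in 0. The shares of all tested genes called as higher ran from 15.2% (NK) and 16.7% (plasma) over 32.4% (interstitial macrophage) and 37.3% (alveolar macrophage) to 38.9% (endothelial) and 40.6% (fibroblast), with 27.2% in the mural gate. It was called at 5.71 ± 0.23 on the log2 scale in type 2 dendritic cells, 5.57 ± 0.22 in monocytes, 4.69 ± 0.16 in B cells, 4.37 ± 0.17 in type 1 dendritic cells, 4.26 ± 0.20 in migratory dendritic cells and 3.57 ± 0.18 in neutrophils. The edgeR adjusted p-values of these 6 gates were 5.8e-09, 5.3e-09, 2.7e-10, 8.8e-11, 6.3e-28 and 2.7e-09. In these 6 gates 27.7%, 28.7%, 27.3%, 25.3%, 24.8% and 34.4% of all tested genes were called as higher than in T cells, so a call alone is common. The ranges of the monocyte and type 2 dendritic gates overlapped, as did those of the type 1 and migratory dendritic gates.

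Lpcat1 was highest after alveolar type 2 cells in migratory and type 1 dendritic cells. It had 165 and 119 CPM in the migratory dendritic gate of GAL, against 110 and 174 in WT, a log2 fold change of 3.20 ± 0.19 over the T gate (edgeR adjusted p = 3.6e-23). The type 1 dendritic gate had 103 and 87.4 in GAL, against 78.1 and 98.5 in WT (2.45 ± 0.18 over the T gate). Endothelial cells had 54.8 to 81.7 over the 4 libraries (1.36 ± 0.15 over the T gate), type 2 dendritic cells 35.4 to 57.2 and B cells 34.5 to 48.1 (1.07 ± 0.10). It was called as higher than in the T gate in 6 gates and as lower in 3, the NK (−1.49 ± 0.27), plasma (−1.51 ± 0.46) and alveolar macrophage gates. In these 3 gates 17.5%, 24.9% and 36.9% of all tested genes were called as lower, and in the 6 gates 24.8% to 38.9% as higher. Alveolar macrophages, which take up surfactant in the airspace, had 7.07 and 4.85 in GAL and 5.19 and 5.02 in WT (−1.81 ± 0.15).

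Abca3 differed less between gates. It had 57.1 and 56.3 CPM in the ciliated gate of GAL, against 41.1 and 48.5 in WT (1.66 ± 0.20 over the T gate). Monocytes had 20.2 to 35.6, endothelial cells 24.7 to 32.5 and alveolar macrophages 18.5 to 19.5 over the 4 libraries, with 12.03 to 15.6 in T cells of GAL and 11.7 to 13.2 in T cells of WT. Of 14 gates it was called as higher than in the T gate in 7, with log2 fold changes of 0.47 to 1.66, and as lower in the NK gate (−1.71 ± 0.31). In these 7 gates 25.3% to 38.9% of all tested genes were called as higher, and in the NK gate 17.5% as lower. The call of higher was lost in 3 of 7 alternatives in the B gate and in 2 in the interstitial macrophage gate, and the other 5 were kept in all 7.

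**Figure D5:**
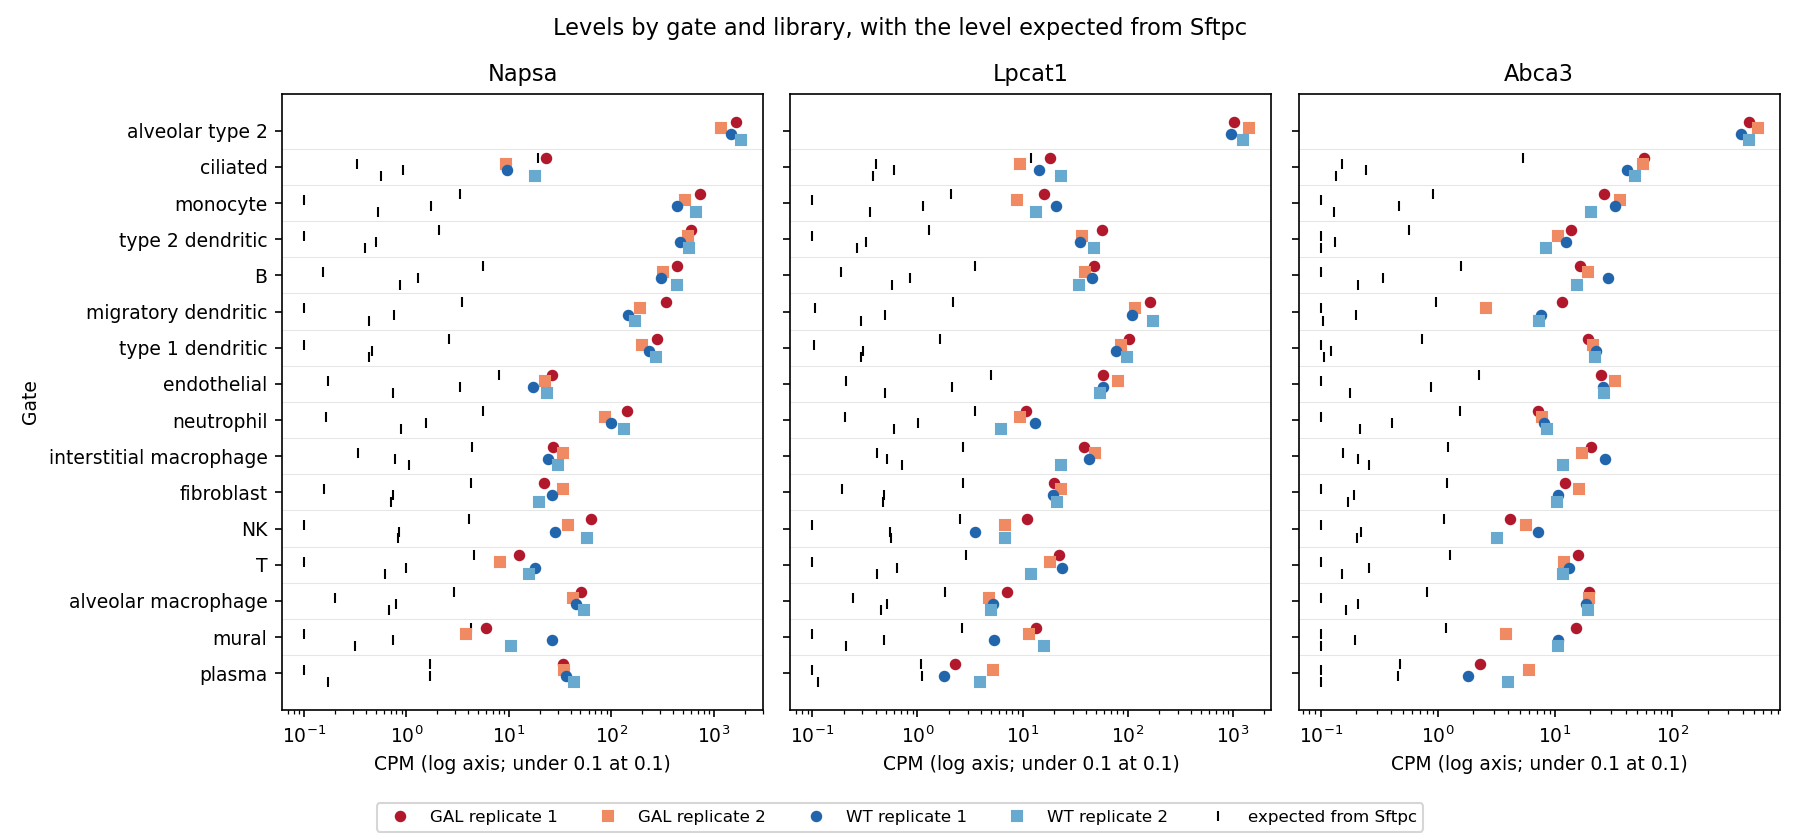
Napsa, Lpcat1 and Abca3 in CPM (log axis) in 16 gates, by library (red GAL, blue WT), with the level expected from the Sftpc background of the same gate and library as black ticks. Napsa stands well above its ticks in the monocyte, dendritic, B and neutrophil gates, and its 4 libraries lie together where the ticks spread.

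Lamp3, which in human is known as the dendritic cell marker DC-LAMP, was near background in dendritic cells of these mice. The migratory dendritic gate had 3.8 and 0 CPM in GAL and 1.4 and 0 in WT, against 1120 and 934 in GAL and 1058 and 1037 in WT in the alveolar type 2 gate. The counts of 0 allow up to 3.82 CPM in GAL replicate 2 and up to 10.9 CPM in WT replicate 2 (3 UMIs of the sum). It could be tested against the T gate in 1 gate only, the B gate (1.27 ± 0.45, edgeR adjusted p = 0.0323), at 1.1 to 5.1 CPM, and this call was lost in 6 of 7 alternatives.

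The ciliated gate stood above the background for Sftpa1, Sftpb and Sftpd. Sftpa1 had 969 and 591 CPM there in GAL, against 449 and 268 in WT. Sftpb had 497 and 114 in GAL, against 186 and 178 in WT, and Sftpd had 226 and 182 in GAL, against 246 and 57.5 in WT. Over the T gate, Sftpd was at 5.28 ± 0.34, Sftpb at 5.09 ± 0.26 and Sftpa1 at 4.91 ± 0.38 on the log2 scale (edgeR adjusted p = 2.5e-11, 3.8e-13 and 3.3e-10), where 35.9% of 11560 genes were called as higher. The measured level was 4.28 to 92.0 times the expectation for Sftpa1, 5.56 to 83.9 times for Sftpb and 4.97 to 111 times for Sftpd. Slc34a2 was also called as higher there, at 1.79 ± 0.47 over the T gate (edgeR adjusted p = 0.0021), and kept this call in all 7 alternatives. Its level was low, at 4.83 to 23.8 CPM over the 4 libraries. It was 0.68 to 13.7 times the expectation, with more than 3 times in 2 of 4 libraries. Club cell RNA was abundant in the same cells. The 9 club markers summed to 176910 and 100210 CPM in the ciliated gate of GAL and to 109750 and 56242 in WT, nearly all of it Scgb1a1. The 12 alveolar type 2 markers summed to 993 and 750 in GAL and 816 and 564 in WT. Their part in the ciliated levels was not tested.

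The club gate itself was small, with 7 and 3 cells in GAL and 11 and 4 in WT, and was not tested. Sftpa1 had 1571 and 4881 CPM in club cells of GAL, against 5015 and 1894 in WT, and Sftpd had 689 and 1022 in GAL, against 1185 and 518 in WT. Sftpc had 158 and 0 in GAL and 7.6 and 39.9 in WT. Lamp3 was at 0 in all 4, which allows up to 20.7 and 76.7 CPM in GAL and up to 22.9 and 59.8 CPM in WT, and the 0 of Sftpc in GAL replicate 2 allows up to 76.7 CPM.

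Apart from Napsa, Lpcat1 and Abca3, and Sftpa1, Sftpb, Sftpd and Slc34a2 in the ciliated gate, differences from the T gate were near the background. Sftpc was called as higher than in T cells in 4 gates and as lower in 3, with log2 fold changes between −0.58 and 1.07, and 0 of these 7 calls held under all 7 alternatives. The 3 gates with Sftpc lower were type 1 dendritic, type 2 dendritic and mural cells, where 27.4%, 29.4% and 30.6% of all tested genes were called as lower. The largest was in neutrophils, where Sftpc, Sftpa1, Sftpb, Sftpd and Slc34a2 were called at 0.98 to 1.40. All 5 calls were lost with no replicate block for the library, and of 7 alternatives Slc34a2 lost its call in 5, Sftpb in 3 and Sftpd in 2. Neutrophils had fewer UMIs per cell (medians of 1993 and 1895.5 in GAL and 1228.5 and 1553 in WT) than T cells. Counted per cell, Sftpc was at 1.34 and 0.041 UMIs in neutrophils of GAL and 0.206 and 0.157 in WT, and at 1.52 and 0.026 in T cells of GAL and 0.203 and 0.172 in WT. The part of depth in these calls was not tested. Summed over the 14 gates, 38 of 101 tests of the 9 genes were calls of higher, where 15.2% to 40.6% of all genes tested in a gate were, and 7 were calls of lower, in gates where 17.5% to 36.9% of all genes were.

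GAL and WT were compared in 3 further sums, in which 0 of the 9 genes were called by edgeR. Outside the alveolar type 2 gate 0 of 17148 genes were called (0%) and the median of the 9 was 1.49. Cells in no gate are part of that sum. In the lymphocyte gates (T, B and NK) 0 of 12369 genes were called (0%) and the median was 1.08, and in the alveolar macrophage gate 0 of 12354 were called (0%) and the median was 0.54. The numbers of all genes at an unadjusted p under 0.05 were 1020, 132 and 411, with 0 of the 9 among them, and DESeq2 called 0 of the 9 in each sum, with 41 of 24208, 0 of 20208 and 7 of 19897 genes called in all. Napsa, which among lymphocytes is mainly in B cells, had 142 and 107 CPM there in GAL, against 93.5 and 189 in WT (log2 fold change −0.15 ± 0.34). The B gate held 1124 and 1483 cells in GAL and 1324 and 2965 in WT, and the part of these numbers in the Napsa sum was not tested. Without GAL replicate 1 the medians were −0.71, −1.66 and −0.53. Without GAL replicate 2, 5 of the 9 genes were called outside the alveolar type 2 gate (Sftpa1, Sftpb, Sftpc, Lamp3 and Slc34a2), where GAL was then 1 library and 536 of 17798 genes were called in all. Without a filter on low counts, 32 of 20208 genes were called in lymphocytes, among them 3 of the 9 (Sftpa1, Sftpb and Sftpc, with Sftpc at 1.57 ± 0.23, adjusted p = 3.0e-08), although GAL replicate 2 lay below both WT libraries for all 3.

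Among the 10 genes whose pattern over the 16 gates was most like the sum of the 9 were Slc26a9, Egfl6, S100g, Tfcp2l1, Krt23, Sfta2, Tinag, Rbpjl and Cxcl15, with Pearson r of 0.94 to 0.92 of mean log2(CPM + 1). Egfl6, S100g, Sfta2 and Cxcl15 are markers of the gate. The r is a description over gates of the same 4 libraries, which share free RNA. By the same measure, among 7173 genes, Slc34a2 ranked 2, Lamp3 6, Sftpc 10, Sftpd 20, Abca3 25, Sftpb 26 and Sftpa1 29, whereas Lpcat1 ranked 70 and Napsa 164. Each of these 9 genes is part of the sum it was ranked against, so the ranks are a description only.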

How the data were processed

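Lung cells of 2 GAL and 2 WT libraries were measured by droplet sequencing. The authors deposited 1 matrix of raw UMI counts per library, as whole numbers with no normalization, and these were used. Reads were handled with fastp, STAR and Seurat, and the build is GRCm38 (mm10), per the submitters' processing notes, which give no versions. Which annotation was counted is not stated there. The lowest barcode of each library held 500 UMIs.

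Barcodes under 500 UMIs or 300 genes, or with over 20% mitochondrial UMIs, were left out. Removal of the cells with the highest Scrublet scores, at 0.8% per 1000 cells, had been planned. It took all 12 gated alveolar type 2 cells of GAL replicate 2, so cells were kept whatever their score, and removal became an alternative; this was decided after the data were seen. Cells were gated with 184 markers of 18 types. Counts were summed per gate and library, and levels are UMIs per 1000000 UMIs of that sum (CPM). Leiden clusters at resolution 1.0 (scanpy 1.11.5; 2000 variable genes, 40 principal components and 20 neighbours), made without the 9 genes, were an alternative to the gates.

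GAL and WT were compared by the edgeR 4.0.16 quasi-likelihood test with filterByExpr and TMM, and a gene was called at a Benjamini-Hochberg adjusted p under 0.05 over all genes tested. Each gate that had 10 or more cells in all 4 libraries was set against the T gate with the library as a block, since its sums come from 1 suspension of cells. A ± after a log2 fold change is its standard error. DESeq2 1.42.0 was an alternative. The tests were tried on simulated counts, where edgeR recovered 2.5%, 82% and 98.5% of 2-fold, 4-fold and 8-fold changes in the whole lung. Intervals of shares are Clopper-Pearson at 95% and cover counting error only. An exact two-sided permutation of 2 against 2 libraries cannot give a p below 0.333.

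The 9 genes, the lists and the tests were chosen with earlier results of these data known. All 9 genes were to be named in each comparison, with the 4 genes of smallest p of each of 4 pathway lists in the alveolar type 2 gate, the 10 genes of most similar pattern with at least 50 CPM in a gate, and Galt. Some genes that this rule names are not reported here.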

Additional observations from a re-analysis of the deposited data

How the results depend on the processing

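No paired analysis was possible for GAL against WT because the labels give the libraries no shared numbers; replicates 1 and 2 are names in accession order. Leaving out 1 library at a time, the number of the 9 genes called ran from 0 to 5 in the whole lung and from 0 to 5 outside the alveolar type 2 gate, with the 5 calls in each without GAL replicate 2. The log2 fold change of the share of alveolar type 2 cells ran from −2.33 to 2.31. Whole-lung log2 fold changes ran from −1.79 to 1.95 (Sftpa1), −1.81 to 2.54 (Sftpb), −2.24 to 2.34 (Sftpc), −1.53 to 1.76 (Sftpd), −2.13 to 2.25 (Lamp3), −0.078 to 0.75 (Abca3), −0.29 to 0.16 (Napsa) and −1.78 to 2.10 (Slc34a2). In the alveolar type 2 gate they ran from −0.38 to 0.25 (Sftpc), −0.35 to 0.17 (Sftpd), −0.21 to 0.12 (Lamp3), −0.077 to 0.36 (Lpcat1), −0.54 to 0.00034 (Napsa) and −0.029 to 0.29 (Slc34a2), with 0 of the 9 called with any library left out, where 45 and 7 genes in all were called without GAL replicates 1 and 2 and 22 and 47 without WT replicates 1 and 2. With clusters in place of gates, Lpcat1 lay at −0.085 and Slc34a2 at −0.14 in alveolar type 2 cells. The gate with doublets removed could not be fitted, because GAL replicate 2 then had 0 cells.

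Without a filter on low counts, 3 of the 9 genes were called in lymphocytes. Against the T gate, the number of calls of higher was 38, 27 with no replicate block for the library and 16 with the B gate as reference, in which Napsa and Lpcat1 are themselves higher. Sftpc in ciliated cells ran from −0.074 to 1.18 with 1 library left out, and with clusters it lay at −0.45 in endothelial and 1.29 in mural cells. The cause of these changes was not tested. The 10 calls of Napsa as higher outside fibroblasts and the 6 of Lpcat1 held under all 7 alternatives that kept the T gate as reference. Lamp3, Sftpd and Slc34a2 could not be tested in 13, 3 and 9 of 14 gates, where the filter on low counts left them out. The cause of their low counts was not tested.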
